A study of Rattus norvegicus with 50 samples.

Results

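Fam111a was the gene under study, and its expression was followed across all 50 lung samples of the series. It is 1 of the 14557 genes with a name among the probe sets of the array, and it was read by the single probe set 17624282, the one that the platform annotation pairs with Fam111a (gene ID 499322). The lungs were then sorted into 2 states, selected on the measured log2 value of the gene itself. Each lung was placed in a high state where the log2 value of Fam111a lay above 7, or in a low state where it lay below 6. There were 7 lungs in the high state, 43 in the low state and 0 in between. The states were drawn from the measured values of the gene, so they are not groups of the study, and the distance between them is given as a description with no test.

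The lungs came from male Sprague-Dawley rats, 9 weeks old at purchase, that breathed laser printer emissions (printer-emitted particles, here PEP) or HEPA-filtered control air (here Air) for 5 h a day. Days 1, 5 and 9 had 5 lungs per exposure and day 21 had 6 per exposure. At day 21 there were also 4 lungs per exposure from rats carrying an implanted radio telemetry system, called implanted here. The comparisons ask whether the lung level of a transcript differs with inhaled particles, with the length of exposure and with the implant. One label of these samples speaks of blood while the tissue and source labels name lung. The 6 measured alveolar type 2 cell markers (surfactant proteins and the like) had a mean log2 value between 11.2 and 11.6 in every lung, against array medians of 4.92 to 5.11. Whether every array is from its own rat is not stated in the labels, so p-values reflect only how much these samples vary. The exposure was run in more than 1 year and lungs are not labelled by year, so the run could not be entered as a batch, and its part in any difference between groups was not tested. Some lungs stood apart in other genes. PEP day 1 replicate 1 had high levels of liver genes, and all 8 implanted lungs had low levels of Ly6al, as given below with the results they touch.

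In human cells, FAM111A is a trypsin-like serine protease that binds PCNA, the sliding clamp of DNA replication, and helps replication forks pass proteins that are stuck on DNA. It also restricts host-range mutants of some DNA viruses, and heterozygous human mutations cause Kenny-Caffey syndrome. Its amount follows the cell cycle in human cells, and a homologous gene, FAM111B, lies beside it in the human genome. In the rat annotation used here, Fam111al1 (gene ID 691074) is the measured gene that directly precedes Fam111a on chromosome 1, and it was read by probe set 17624279. A pseudogene, Fam111a-ps1, lies on the same side and was not analysed here.

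The sequences upstream of both genes are shown because the genes lie next to each other and only Fam111a had high and low lungs. Each is the 250 bases before the RefSeq start on the + strand of build GRCr8, chr1:219065389-219065638 for Fam111a and chr1:219017946-219018195 for Fam111al1. Capitals mark matches, on either strand, to CCAAT, to the GC box GGGCGG, to TTTGAA (a cell-cycle homology region) and to TATAAA.
Fam111a: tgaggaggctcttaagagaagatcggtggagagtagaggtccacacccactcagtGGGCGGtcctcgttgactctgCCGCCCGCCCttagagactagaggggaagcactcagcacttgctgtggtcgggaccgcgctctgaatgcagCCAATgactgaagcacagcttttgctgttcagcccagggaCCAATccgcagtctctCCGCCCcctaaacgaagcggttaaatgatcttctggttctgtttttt
Fam111al1: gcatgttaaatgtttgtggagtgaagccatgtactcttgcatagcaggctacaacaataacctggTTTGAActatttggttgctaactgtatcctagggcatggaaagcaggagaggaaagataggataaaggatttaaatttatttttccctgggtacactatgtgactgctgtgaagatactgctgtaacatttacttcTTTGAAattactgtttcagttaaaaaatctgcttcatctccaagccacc
The Fam111a stretch held 2 CCAAT matches and 4 GGGCGG matches, of which a pair overlap, and 0 matches to TTTGAA or TATAAA. The Fam111al1 stretch held 2 TTTGAA matches and 0 of the other 3 motifs. Of 33469 rat promoter windows of the same length, 34.0% held CCAAT, 9.42% held it at least 2 times, 30.5% held GGGCGG, 16.2% held TTTGAA and 12.9% held TATAAA. The GC content was 55.6% for Fam111a, with 12 CG pairs, and 38.4% for Fam111al1, with 0 CG pairs, against a median of 51.2% over all windows. A match is a description of letters and not a mapped site.

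High lungs were found in 4 of the 10 groups. The implanted Air lungs had log2 values of 8.01, 7.69, 7.38 and 8.41 (replicates 1 to 4), so all 4 were high. The implanted PEP lungs had values of 4.92, 4.71, 7.91 and 4.64, and replicate 3 alone was high. Without an implant at day 21, the 6 Air lungs had values of 4.60, 4.93, 4.80, 4.69, 4.79 and 4.57, and the 6 PEP lungs 4.97, 4.94, 4.75, 5.27, 4.77 and 4.82. None of these 12 lungs was high, and the Air and implanted Air lungs did not overlap, as was found for 7.79% of the 8202 genes tested.

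At day 1 a single lung was high in each group. The Air lungs had values of 5.54, 5.83, 8.13, 5.38 and 5.38, where replicate 3 stood apart. The PEP lungs had values of 8.05, 5.61, 5.43, 5.18 and 5.52, where replicate 1 stood apart. The other lungs of both groups lay between 5.18 and 5.83. At day 5 the Air lungs had values of 5.57, 5.61, 5.30, 5.09 and 5.12, and the PEP lungs 4.79, 5.27, 4.93, 5.20 and 5.42. At day 9 the Air lungs had values of 5.52, 5.51, 5.32, 4.64 and 4.92, and the PEP lungs 5.25, 5.09, 5.14, 4.81 and 4.80. All 20 lungs of days 5 and 9 were in the low state, and Air and PEP overlapped at both times.

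**Figure D1:**
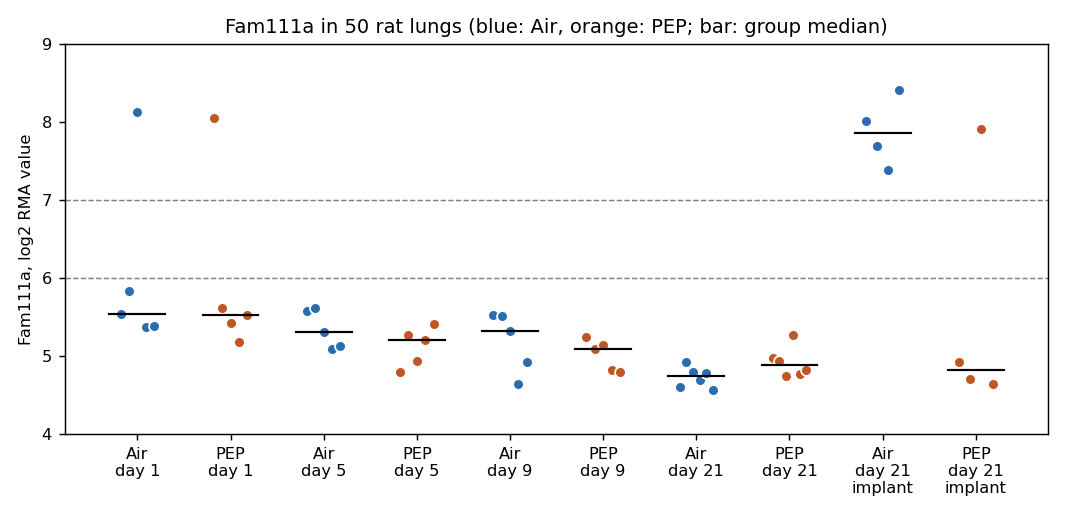
Log2 RMA value of Fam111a in each of the 50 lungs, by exposure, day and implant; each point is a lung, the black bar is the group median and the dashed lines are the limits of the states at 6 and 7. All 4 implanted Air lungs, 1 implanted PEP lung and 1 lung in each day 1 group lie between 7.38 and 8.41, and the other 43 lungs lie between 4.57 and 5.83.

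The 7 high lungs spanned 7.38 to 8.41 (median 8.01) and the 43 low lungs 4.57 to 5.83 (median 5.09), so the medians differed by 2.93 on the log2 scale, or 7.61-fold. Just inside the limits were an Air lung of day 1 (replicate 2) at 5.83, followed by an Air lung of day 5 (replicate 2) at 5.61, and on the upper side implanted Air lungs at 7.38 (replicate 3) and 7.69 (replicate 2). The empty stretch of 1.55 between 5.83 and 7.38 corresponds to 2.92-fold and was wider than the whole range of the high lungs (1.03) or of the low lungs (1.27). In whole lung tissue, more cells with the transcript and more transcript per cell cannot be told apart. The gene was read by 1 probe set whose probe sequences were not at hand. Whether sequence variants under the probes have a part in the 2 states was therefore not tested. The low values lay near the array medians (4.92 to 5.11).

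Low-state values are given here by day, with no test of the low lungs alone. Among low lungs the median was 5.46 in the Air lungs and 5.47 in the PEP lungs of day 1 (n = 4 each), 5.30 and 5.20 at day 5 (n = 5 each), 5.32 and 5.09 at day 9 (n = 5 each), and 4.74 and 4.88 at day 21 (n = 6 each). The 3 low lungs of implanted PEP rats had a median of 4.71. Every Air lung of day 5 lay above every Air lung of day 21 (5.09 to 5.61 against 4.57 to 4.93). Of the 8202 genes tested, 2.97% had groups that did not overlap in this comparison, in either direction. In the limma model of all 50 lungs the day 21 value was 0.63 ± 0.40 (SE) below that of day 5 in Air lungs. This comparison was not planned, and Fam111a did not pass the threshold in it (limma adjusted p = 0.404), while 3.43% of genes did. The F test over the 4 days in Air lungs, which includes the high lung of day 1, gave an adjusted p of 0.0724 for Fam111a with limma, and 18.5% of genes passed it.

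For the PEP against Air comparisons, a gene was called where its adjusted p (limma, Benjamini-Hochberg over 8202 genes) was below 0.05. Fam111a was lower by 2.39 ± 0.47 (SE) on the log2 scale in implanted PEP lungs than in implanted Air lungs (5.25-fold, 95% interval 2.73 to 10.1, n = 4 each, limma adjusted p = 0.0472). It was the only gene called there, so percent called was 0.0122%. The groups overlapped, because the high lung of the PEP group (7.91) lay above 2 of the 4 Air lungs. The exact permutation test of the group means (difference -2.33, PEP lower) gave p = 0.0857, two-sided, where 0.0286 is the smallest p that 4 against 4 allows. The limma call was lost when any of 6 of the 8 lungs was left out (Air replicates 1, 3 and 4 and PEP replicates 1, 2 and 4, with adjusted p from 0.0702 to 0.357), and without the high PEP lung the difference was -3.15 (adjusted p = 6.15e-06). As the gene was chosen with results of these data known, this call is no independent support for the difference. Mean levels of cardiac muscle markers, which come with heart or pulmonary vein tissue, differed between the same lungs, from 4.85 to 9.69 in implanted Air and from 3.78 to 9.05 in implanted PEP lungs. All 6 of 6 such markers had negative PEP-minus-Air values there (median -2.50, 0 called), and their part in the Fam111a difference was not tested.

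In the other 4 comparisons Fam111a was not called. The PEP-minus-Air value was -0.30 ± 0.38 (SE) at day 1 (95% interval -1.06 to 0.46, limma adjusted p = 0.892), -0.25 ± 0.40 at day 5 (-1.06 to 0.55, adjusted p = 0.977), -0.14 ± 0.41 at day 9 (-0.96 to 0.68, adjusted p = 0.997) and 0.18 ± 0.39 at day 21 (-0.61 to 0.97, adjusted p = 0.890). Percent called was 0.0% at days 1, 5 and 9 and 0.219% at day 21. At day 1 the sign rested on the high lungs, with -0.58 when PEP replicate 1 was left out and 0.19 when Air replicate 3 was left out. At day 21 the Air mean was exceeded by 6 of 6 PEP lungs, although the groups overlapped (Air 4.57 to 4.93, PEP 4.75 to 5.27). How many of all genes have this pattern was not counted. The exact permutation test at day 21 gave p = 0.0693 (0.214 after adjustment over the 5 comparisons). Over the 5 pairs of groups the mean difference was -0.58 ± 0.18 with a limma adjusted p of 0.181 (percent called 0.134%). Without implanted PEP replicate 3 it was -0.73 with an adjusted p of 0.0264.

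**Figure D2:**
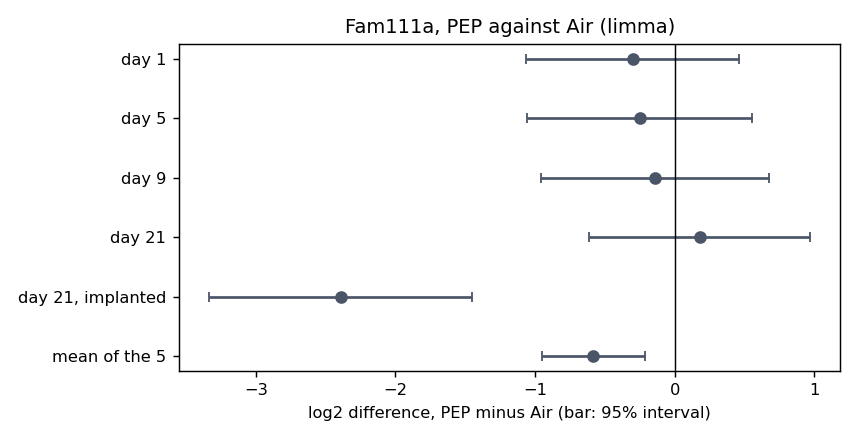
PEP-minus-Air difference of Fam111a in log2 units for each pair of groups and for the mean of the 5; points are limma estimates and bars their 95% intervals. The implanted pair lies at -2.39 and the other 4 between -0.30 and 0.18 with intervals that include 0.

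Counting states gave no called difference between exposures. Of 25 PEP lungs 2 were high (8.0%), and of 25 Air lungs 5 were high (20.0%), with p = 0.417 by Fisher's exact test (two-sided). Among implanted rats 1 of 4 PEP and 4 of 4 Air lungs were high (Fisher's exact p = 0.143). Without the implanted rats 1 of 21 lungs was high in either exposure.

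Of the 7 high lungs 5 were implanted, and 5 of the 7 were also Air lungs. Implanted lungs were high in 5 of 8 cases and day 21 lungs without implant in 0 of 12 (Fisher's exact p = 0.00361). Against all other lungs, of which 2 of 42 were high, the exact p was 0.000495. Within Air, 4 of 4 implanted and 0 of 6 other day 21 lungs were high (exact p = 0.00476), and within PEP 1 of 4 and 0 of 6 (exact p = 0.4). These 4 tests were added after the values were seen. In the limma model, implanted lungs exceeded those without implant by 1.90 ± 0.31 (SE), as the mean of Air and PEP (3.74-fold, adjusted p = 1.61e-05), where 14.4% of genes were called.

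By exposure, the implant difference was 3.19 ± 0.44 (SE) in Air lungs (9.11-fold, 95% interval 4.94 to 16.8, limma adjusted p = 8.25e-06, 6.91% of genes called). It was 0.62 ± 0.43 in PEP lungs (95% interval -0.24 to 1.48, adjusted p = 0.517, 3.8% called). The difference between the 2 implant effects was -2.57 ± 0.61 with a limma adjusted p of 0.529, and 0.0% of genes were called in it. The implant comparisons within each exposure and their difference were not planned. As the gene was chosen for its high and low lungs, the implant p-values here and above are no independent support for a difference. Lymphocyte markers moved in the same lungs. The mean level of 8 T cell markers was 6.83 to 7.27 in implanted Air lungs and 5.82 to 6.34 in Air lungs of day 21, and 7 of the 8 were called higher (median 0.92, against -0.05 over all genes). In implanted PEP lungs, where 3 of 4 were low for Fam111a, the T cell markers had a mean of 6.64 to 7.19. This mean was 6.56 to 6.94 in PEP lungs of day 21 and 6.67 to 7.08 in Air lungs of day 9. Air lungs of day 21 had the lowest median of the 10 groups (6.22). The part of the T cell markers in the Fam111a difference was not tested.

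The largest gap between neighbouring lungs, with at least 5 lungs on either side, was used to place Fam111a among all genes tested. Its gap of 1.55 ranked 4 of 8202. The median gap was 0.0908 and the 99th percentile 0.322, and 8 genes (0.0975%) had a gap of 1 or more. The others were Ly6al (3.99), RGD1309362 (3.87), Vsig4 (2.05), C5 (1.54), Cd300lg (1.499), Cyp1a1 (1.37) and LOC690045 (1.29), followed by Frmpd3 (0.97) and Bpifb1 (0.91). VSIG4 is a complement receptor of resident tissue macrophages, C5 a complement protein, CD300LG an endothelial surface protein and CYP1A1 a detoxifying enzyme that aryl hydrocarbon receptor ligands induce. As Fam111a was chosen for this pattern, its rank is a description.

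**Figure D3:**
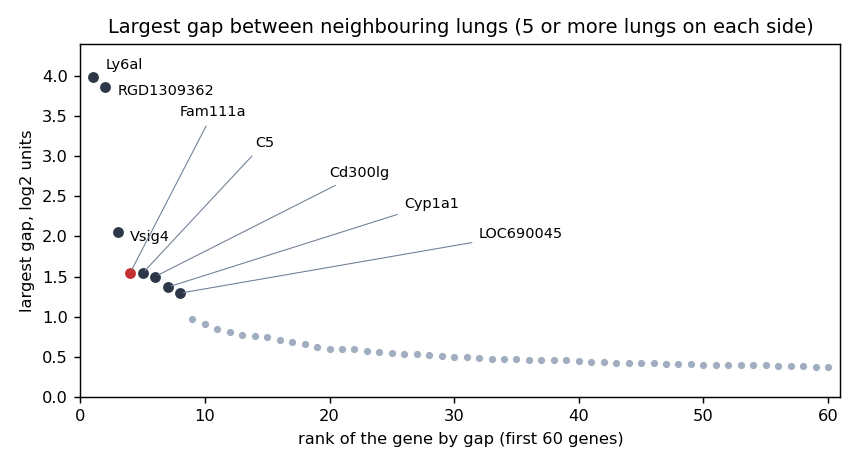
Largest gap, in log2 units, between neighbouring lungs with 5 or more lungs on each side, for the 60 genes with the widest gaps of 8202, by rank. Fam111a (red) is at rank 4 with a gap of 1.55, and 8 genes reach a gap of 1.

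The other genes split the lungs differently from Fam111a. Vsig4 was on its upper side in 6 lungs, all implanted, and 4 of these were Fam111a-high. Implanted Air lungs had Vsig4 values of 8.82, 6.22, 8.54 and 8.78, and implanted PEP lungs 8.74, 4.88, 8.88 and 8.27. Implanted Air replicate 2 was therefore high for Fam111a (7.69) and on the lower side for Vsig4 (6.22), although 6.22 was above every lung without implant (at most 5.88). Implanted PEP replicates 1 and 4 were low for Fam111a and on the upper side for Vsig4. Cd300lg was on its upper side in 9 lungs, of which 7 were implanted and 5 Fam111a-high. Ly6al was on its lower side in all 8 implanted lungs (2.32 to 4.36) and in 3 of the 42 others. RGD1309362, on its upper side in 40 lungs, held all 7 Fam111a-high lungs among them. Cyp1a1 was on its upper side in 12 lungs, and was on its lower side in all 7 Fam111a-high lungs, in all 8 implanted lungs and in 31 of the 43 Fam111a-low lungs.

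**Figure D4:**
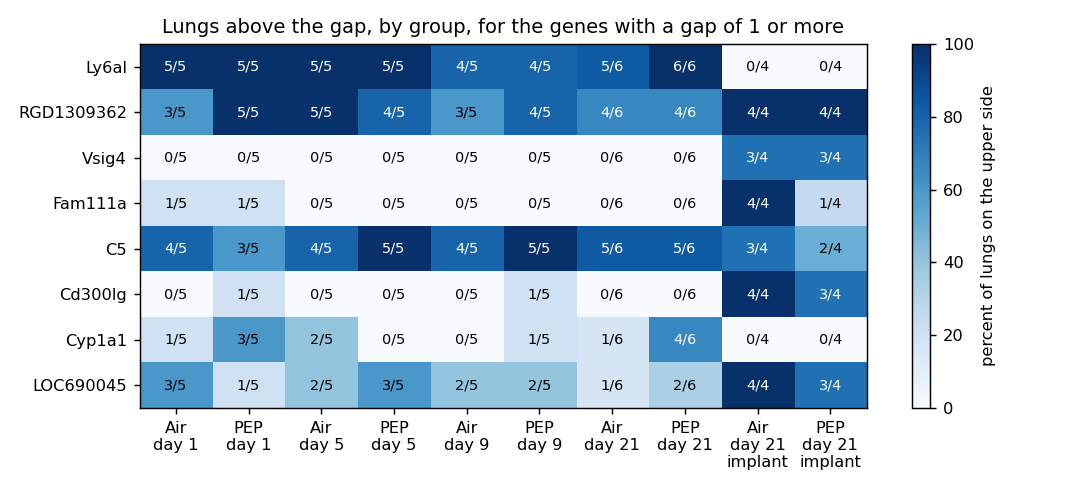
Number of lungs on the upper side of the largest gap, out of the lungs of each group, for the 8 genes with a gap of 1 or more; the colour gives the percent of the group. Ly6al was on the upper side in 0 of 8 implanted lungs, Vsig4 in 6 of 8 and Fam111a in 5 of 8, with 4 of 4 in Air and 1 of 4 in PEP.

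The 3 groups that held both states were used to compare high and low lungs within a group, which left 3 high lungs (Air day 1 replicate 3, PEP day 1 replicate 1 and implanted PEP replicate 3) against 11 low ones. In a limma model with all groups, 0 of 8201 other genes were called (0.0%), the smallest adjusted p was 0.109, and 565 genes (6.89%) had an unadjusted p below 0.05. The 10 genes with the smallest p were Gsta2, Glyat, Or4b1c, Hao1, Apoc1, Apoh, Gc, Ambp, Or4a80 and Serpina1. Most of them are known from the liver, where GSTA2 conjugates glutathione, GLYAT conjugates glycine to acyl groups, HAO1 is a peroxisomal oxidase, and APOH, GC, AMBP and SERPINA1 are secreted plasma proteins. All but Or4b1c and Or4a80, which are olfactory receptor genes, peaked in PEP day 1 replicate 1. In that lung Gsta2 was 6.62 against at most 3.21 elsewhere, Glyat was 5.30 against at most 2.75, and Apoh was 8.77 against at most 3.27.

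The other high lungs did not share these liver levels. The 4 measured hepatocyte markers had a mean level of 9.26 in PEP day 1 replicate 1, of 3.68 to 4.10 in the other 6 high lungs and of 3.58 to 4.54 in the 43 low lungs. Alb, the albumin gene, reached 11.9 in that lung and at most 5.96 in a low lung. Without PEP day 1 replicate 1, the high-minus-low difference of Glyat fell from 1.05 ± 0.23 (SE) to 0.35 ± 0.18, that of Apoh from 1.79 ± 0.41 to 0.29 ± 0.21, and the smallest limma adjusted p over all genes was 0.530. The difference of Or4a80 was 0.82 ± 0.20 with that lung and 0.99 ± 0.22 without it, and that of Or4b1c 1.12 ± 0.25 and 1.11 ± 0.30. Over all lungs Or4b1c was 2.54 to 4.13 in high lungs and 2.47 to 4.33 in low lungs, so the high lungs lay inside the range of the low ones. Or4a80 reached 3.95 in Air day 1 replicate 3 and at most 2.39 in any other lung.

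Likeness to Fam111a was measured by Pearson's r over the 50 lungs after each group mean was taken off. These lungs share group membership, and the 3 high lungs of mixed groups weigh most in r, so r is a description with no p. The highest absolute values were those of Zc3h15l1 (0.61), Hao1 (0.59), Glyat (0.58), Or4b1c (0.57), Tf (0.57), Apoh (0.56), Serpina4 (0.55), Bag3 (0.55), Ambp (0.55) and Amy1 (0.55), against a median of 0.114 over 8201 genes. TF (transferrin) and SERPINA4 are further plasma proteins from the liver, and BAG3 is a partner of the Hsp70 chaperone. Without PEP day 1 replicate 1 their r was 0.47 for Zc3h15l1, 0.48 for Or4b1c and 0.49 for Bag3, and between 0.24 and 0.34 for the other 7. The number of genes with an absolute r above 0.5 fell from 36 to 4 without that lung (Or4a80, C2h4orf46, Siglec1 and Scn11a, named after their values were seen). Bag3 was 7.80 to 8.59 in high lungs and 7.38 to 8.22 in low lungs, so these overlapped. Of the probe sets with no name here, 17736300 (r = -0.65), 17743225 (0.61) and 17610933 (-0.61) had the highest absolute values, and these were -0.58, 0.56 and -0.51 without that lung.

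Of the 20 measured genes around it, 10 on each side, 17 passed the variance filter and 0 were called between the states, although Glyat was called with equal array weights (1.30 ± 0.24 SE, limma adjusted p = 0.00779). Fam111al1, the gene beside it, had values of 2.77 to 3.85 in all lungs. It was 2.84 to 3.08 in the Fam111a-high lungs and 2.77 to 3.85 in the low ones, so the high lungs lay inside the range of the low ones (high minus low within groups -0.16 ± 0.15 SE, limma adjusted p = 0.943; r = -0.19). On the other side lie Glyatl1, Glyat and Glyatl2, of the glycine N-acyltransferase family, with r of 0.38, 0.58 and 0.39. Without PEP day 1 replicate 1 these were 0.03, 0.33 and -0.05. In each of the 3 groups with both states, Glyat was highest in the Fam111a-high lung, at 2.75 against at most 2.45 in Air day 1, 5.30 against at most 2.25 in PEP day 1 and 2.17 against at most 2.11 in implanted PEP. How many of all genes have this pattern was not counted, so it is no result about Glyat. All of these values but 5.30 lay below the array medians (4.92 to 5.11). Over all lungs the states overlapped for Glyat (2.05 to 5.30 in high and 1.80 to 2.71 in low lungs). Farther out, Cntf, a neurotrophic cytokine, had an r of -0.18, Zfp91, a zinc finger ubiquitin ligase, of 0.24, and Lpxn, a focal adhesion protein, of 0.09. The remaining neighbours are olfactory receptor genes (Or5a1, Or5bb12, Or5an9, Or5an1, Olr387, Or5a21, Or5an1b, Or5an6 and Or5a3 before it, and Or5b95, Or5b21, Or5b96 and Or5b12b after it), with r from -0.20 to 0.30. Among these receptors Or5an1 had the largest high-minus-low difference, 0.54 ± 0.25 (limma adjusted p = 0.689).

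**Figure D5:**
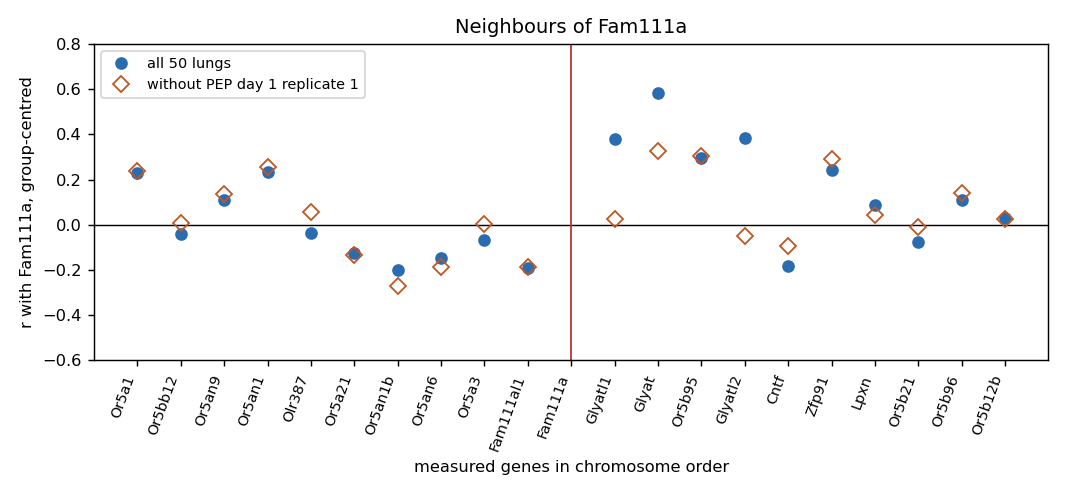
Pearson's r with Fam111a over lungs, group means removed, for the 10 measured genes on each side in chromosome order; filled circles are all 50 lungs and open diamonds leave out PEP day 1 replicate 1. The values ran from -0.20 to 0.58 with all lungs and from -0.27 to 0.33 without that lung.

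Genes of the processes in which FAM111A is known were examined as lists. Of the replication fork and PCNA partner genes, 35 of 43 were named here and 16 tested, and 0 were called between the states or in the implanted PEP against Air comparison (median high-minus-low -0.03, against 0.02 over all genes). Cdc45, a subunit of the replicative helicase, had -0.32 ± 0.14 (SE) and Chaf1a, a chromatin assembly factor that binds PCNA, -0.36 ± 0.18, with limma adjusted p of 0.689 and 0.723. Of the DNA-protein crosslink repair genes 3 were tested and 0 called (Fancd2 0.17 ± 0.16 and Fanci 0.03 ± 0.16). Of the proliferation genes 14 were tested and 0 called between the states (median -0.00041, with Aurkb, a mitotic kinase, at 0.40 ± 0.66 and Ccnb1, a mitotic cyclin, at 0.20 ± 0.19).

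Of the interferon-stimulated and antiviral genes 12 were tested and 0 called (Ifit3 -0.34 ± 0.26 and Ifi44 -0.31 ± 0.17 between the states). In the implanted PEP against Air comparison 1 of the 12 had a positive value and the median was -0.26, against 0.03 over all genes, with 0 called. Of the nuclear pore genes, which human studies link to FAM111A activity, 1 passed the filter, Pom121, at 0.39 ± 0.15 (limma adjusted p = 0.592).

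Among cell type markers 0 were called between the states. For mast cells a score was the mean z value of the markers, with group means taken off. Its r with Fam111a was 0.38, and 0.43 without PEP day 1 replicate 1. Cpa3, a mast cell protease, was 4.89 to 6.99 in high lungs (median 5.53) and 3.43 to 6.46 in low lungs (median 4.33), and its difference within groups was 1.02 ± 0.39 (limma adjusted p = 0.590). These medians pool all groups, and 5 of the 7 high lungs were implanted. Cpa3 had a median of 5.60 in implanted PEP lungs, of which 3 of 4 were Fam111a-low, and 5.48 in implanted Air lungs, against 4.22 in Air lungs of day 21. Of the 6 mast cell markers 2 were called higher in implanted Air lungs than in Air lungs without implant (median 0.71). Over all genes the median was -0.05 in that comparison, and 6.91% were called in either direction. Gzma, a protease of NK cells, had 0.59 ± 0.20 (adjusted p = 0.426) and Siglec1, a macrophage receptor, 0.52 ± 0.17 (adjusted p = 0.358). Marco, of the same macrophage list, went the other way at -0.35 ± 0.37 (limma adjusted p = 0.963). Siglec1 was 5.58 to 6.49 in high lungs and 5.32 to 6.44 in low lungs, so the states overlapped for it as for Cpa3. Ranges of Gzma by state are not given here. The part of these markers in the state of Fam111a was not tested. Array medians were 4.92 to 5.11 in the high lungs and 4.92 to 5.09 in the low lungs, and array weights 0.649 to 1.11 and 0.59 to 1.71.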

How the data were processed

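Lung RNA was measured on 50 Affymetrix arrays, 1 per sample, and groups were taken from the labels. The authors deposited log2 values from RMA, which corrects background, quantile-normalizes the arrays and summarises the probes of a set. Per the submitters' processing notes they used oligo, limma and R 3.4. Quantile normalization removes a shift shared by most genes, and dim signals are compressed, so folds of dim genes are understated. The genome build of the array annotation was not given in the sources used here.

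The table held 36685 probe sets, of which 14824 had 1 gene, 829 several and 21032 none here, and 0 columns of no sample. The 14824 gave 14557 genes (brightest set per gene), and 14670 sets matched a RefSeq gene by identifier. Genes with a variance below 0.05 over the 50 arrays were left out, which left 8202. One limma 3.58.1 model (R 4.3.3) with a mean for each of 10 groups, gene-by-gene array weights and empirical Bayes moderation was fitted, after the weighted models of the study's methods. Two-sided p-values were adjusted over all genes tested (Benjamini-Hochberg). High and low lungs were compared with the state added to the groups. Fisher's exact tests and exact permutation tests used scipy. Scripts were tested on simulated data. Arrays have no read depth, and their number limits the precision.

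The gene, its states and the gene lists were chosen with earlier results of these data known. Genes named are Fam111a and its paralogue, the 10 with the smallest p between the states, the 10 highest absolute r, 3 unnamed probe sets, 20 neighbours, the 10 widest gaps, and up to 2 members of each list, with cell type lists given in part. Of 254 genes on 23 lists 189 were named here. Alternatives changed the weights, filter, centring, moderation, probe sets, thresholds, lungs and replicate block. No protein sequence was used here.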

Additional observations from a re-analysis of the deposited data

Results flagged for a closer look

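A total of 50 groups of values were tested for a lung that stood apart from the rest of its group, and 6 were flagged. Chance flags about 1 in 20 such groups, but this rate cannot be set against the 6, since 3 are values that chose the gene and the other 3 come from 1 lung. For Fam111a, Air day 1 replicate 3 was at 8.13 while the other 4 lungs lay between 5.38 and 5.83. PEP day 1 replicate 1 was at 8.05 while the others lay between 5.18 and 5.61. Implanted PEP replicate 3 was at 7.91 while the others lay between 4.64 and 4.92. As the gene was chosen for its high and low lungs, these values describe that choice.

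The other 3 values belong to the glycine N-acyltransferase genes next to Fam111a, all in PEP day 1 replicate 1. There Glyatl1 was at 4.30 (others 2.40 to 2.92), Glyat at 5.30 (others 2.02 to 2.25) and Glyatl2 at 4.03 (others 2.00 to 2.20). The hepatocyte markers were also high in that lung, as given above. Their part in these values was not tested.

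The PEP-minus-Air difference of Fam111a was more negative in implanted rats than in rats without implant at day 21, by -2.57 on the log2 scale. Its unadjusted p in limma was 0.000117, and its adjusted p over all genes was 0.529, so it did not pass the correction. The comparison was not planned. In implanted rats 3 of 4 PEP lungs lay below the Air mean, and without implant 0 of 6 did.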

How the results depend on the processing

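The directions of the 5 PEP against Air values held under the other settings, except at day 1, where leaving out single lungs gave -0.58 to 0.19 and the sign turned without Air replicate 3. The call in implanted lungs was lost with equal array weights (-2.33, adjusted p = 0.0901), no variance filter (-2.49, 0.103), centred array medians (-2.37, 0.1001), robust moderation (-2.39, 0.131) and every probe set with 1 gene (-2.39, 0.0658). Leaving out each lung gave -3.15 to -2.03 (limma adjusted p from 6.15e-06 to 0.357). The mean over the 5 pairs ran from -0.73 to -0.48, and passed only without implanted PEP replicate 3 (-0.73, adjusted p = 0.0264). The difference of the implant effects ran from -3.33 to -2.21, and passed only without that lung (-3.33, adjusted p = 0.000556). The implant difference in PEP lungs, not called, was -0.14 without that lung.

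Genes called between the states, 0 in the main setting, numbered 56 with equal array weights, 24 with no variance filter, 67 with every probe set, 131 with no group term, 1 in Air lungs alone (Or4a80), 69 in PEP lungs alone, 1 with the replicate block (Apoc1), and 0 to 87 as each lung was left out (87 without Air day 1 replicate 3 and 87 without implanted PEP replicate 3). Of the 69, 66 had their highest value of all lungs in PEP day 1 replicate 1, as did 54 of the 56 and 3 of the 131. So did 20 of the 24, 84 of the 87 without Air day 1 replicate 3 and 85 of the 87 without implanted PEP replicate 3. The implanted lungs weigh in the 131, which include Vsig4 and Cd300lg. The largest absolute r was 0.57 to 0.70 as each lung was left out, 0.88 in Air lungs (Or4a80) and 0.79 in PEP lungs. In Air lungs r changed sign for Serpina4 (-0.024) and Amy1 (-0.19). The gap of Fam111a was 1.55 to 1.86 as each lung was left out and 0.114 if at least 10 lungs had to lie on each side, since 7 were high.

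Replicate numbers were not treated as pairs, since not every pair's correlation was over 0.1. Over 25 pairs of same-numbered Air and PEP lungs the correlation of deviations ran from -0.356 to 0.286. The 4 above 0.1 were all from day 21 without implant, where the 6 pairs ran from 0.053 to 0.286. With the replicate block the implanted difference was -2.57 (limma adjusted p = 0.00968), and the block changed no call of Fam111a.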
